A study of Mus musculus with 257 samples.

Results

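The implants of the Wnt medulloblastoma model were compared by genotype: 10 libraries of BDCP-FLY implants and 5 libraries of BCP implants, 15 of the 257 RNA libraries of the series. Members were taken by titles that give the genotype and call the samples implants. No measured value entered this rule, but earlier results of these data were known when the members were chosen. The wider study asks how Ddx3x, a DEAD-box RNA helicase gene on the X chromosome, acts in cerebellar development and in mouse medulloblastoma. In the group names, B is Blbp-Cre, a recombinase driven by the promoter of Fabp7, which is active in progenitor cells. C and P stand for the altered Ctnnb1 and Pik3ca of the Wnt model, which all of these implants carry by label. D is the floxed Ddx3x allele, and FLY marks males whose only X-linked copy is floxed, so by label BDCP-FLY implants carry that allele and come from males, while no label gives the sex behind the BCP implants. BPtch groups, the Shh model of the series, carry a Ptch allele in place of C and P, BPtchD groups carry the floxed allele as well, FLFL and FLPlus mark it on both X copies or on a single copy, and WT cerebella carry none of these alleles. P marks postnatal days and E embryonic days. The labels call these samples implants, give the RNA as total RNA, and state no age in days, host, implantation site or treatment. Cerebella from day 30 on (P30+) of the same genotypes, 4 BDCP-FLY and 5 BCP libraries, served as normal tissue to set the implants against, and no label ties them to the implanted cells. An implant can hold host cells beside the implanted ones, and a bulk library cannot tell them apart. The labels call all 15 libraries Wnt-model tumours, but Wnt target genes were low in the 10 BDCP-FLY implants and in BCP implant 5, and Ddx3x was not lower in BDCP-FLY implants. The libraries are therefore named by their labels, and whether those with low Wnt targets are tumours of this model was not tested.

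Each title carries a number after the letters DMP that the labels do not explain. It was 022 for 6 BDCP-FLY implants, 015 for 1 and 017 for 3, and 021 for all 5 BCP implants. If such a number marks an implant line, the comparison of genotypes is one of 3 lines against 1, and genotype and DMP number cannot be told apart. The titles number the BDCP-FLY implants from 1 to 5 in each of 2 runs, while another label counts them from 1 to 10. The second numbering is used here, and under it implants 3 to 8 are DMP022, implant 9 is DMP015, and implants 1, 2 and 10 are DMP017. No label says that implants of 1 group came from separate animals, so the spread behind each p-value is that between libraries and may be technical.

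Wnt-model medulloblastoma arises in dorsal brainstem progenitors in which a stabilised beta-catenin, the product of Ctnnb1, enters the nucleus and with TCF/LEF factors switches on feedback genes such as Axin2, Notum, Nkd1 and Wif1. These genes are the usual readout of whether a tumour carries an active Wnt pathway. Cells that sense double-stranded RNA or receive interferon switch on a separate set, including Ifit1, Isg15 and Rsad2, through the interferon-stimulated response element in their promoters. DDX3X itself takes part in translation initiation and in sensing of RNA.

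Promoters of some of these genes hold the letters of such elements. The following stretches, the 140 bases before the annotated gene start in RefSeq's GRCm38.p6, are shown because Ifit1, Isg15 and Rsad2 were higher and the Wnt target Sp5, a transcription factor gene, was lower in BDCP-FLY implants than in BCP implants. Capitals mark GAAANNGAAA or its reverse complement TTTCNNTTTC, the interferon element, and in Sp5 CTTTGAT, the reverse complement of the TCF/LEF letters ATCAAAG. The windows lie at chr19:34640749-34640888 on the plus strand (Ifit1), chr4:156200819-156200958 on the minus strand (Isg15), chr12:26456453-26456592 on the minus strand (Rsad2) and chr2:70474783-70474922 on the plus strand (Sp5).
Ifit1: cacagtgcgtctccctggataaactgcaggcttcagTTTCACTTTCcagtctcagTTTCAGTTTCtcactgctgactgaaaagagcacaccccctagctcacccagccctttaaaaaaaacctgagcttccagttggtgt
Isg15: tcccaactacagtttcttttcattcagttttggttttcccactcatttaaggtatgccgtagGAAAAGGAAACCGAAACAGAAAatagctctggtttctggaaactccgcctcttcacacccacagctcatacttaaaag
Rsad2: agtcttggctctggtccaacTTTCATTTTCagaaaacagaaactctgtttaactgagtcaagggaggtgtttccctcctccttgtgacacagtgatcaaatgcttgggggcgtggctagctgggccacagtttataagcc
Sp5: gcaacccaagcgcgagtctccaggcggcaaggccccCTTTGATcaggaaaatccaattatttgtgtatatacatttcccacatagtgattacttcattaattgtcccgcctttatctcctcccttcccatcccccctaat
In Isg15 the capitals cover overlapping matches, which begin 78, 72 and 66 bases before the gene start. Over windows of 300 bases, from 250 before to 50 after the start, the interferon element was present on either strand in 8 of the 11 interferon genes with a promoter in the table (14 are listed), against 3.44% of all 32851 promoters. The TCF/LEF letters were present in 2 of the 10 Wnt targets with a promoter (16 are listed), Sp5 and Tnfrsf19, against 3.73% of all promoters. A match is a description of letters and says nothing of binding.

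Libraries of the 15 implants held between 15141224 and 49114345 counts, with 0.93% to 3.67% of them in mitochondrial genes. Levels are given in CPM, counts scaled to a library total of 1000000. Log2 fold changes carry a standard error after ±, and a gene is said to be called where the p of edgeR's quasi-likelihood test, adjusted by the method of Benjamini and Hochberg across every gene in the fit, was under 0.05. Correlations among BDCP-FLY implants and those across the genotypes overlapped in range. Across 16975 genes, Spearman's rho was 0.916 to 0.991 for 24 pairs of libraries within a DMP number and 0.841 to 0.961 for 27 BDCP-FLY pairs between DMP numbers. It was 0.706 to 0.869 for 40 pairs of a BDCP-FLY and a BCP implant. These ranges leave out BCP implant 5, which stood apart from the other 4 BCP implants at 0.738 to 0.848 and correlated with BDCP-FLY implants at 0.681 to 0.921. BCP implant 2 also differed, with a summed 43822 CPM of pituitary hormone and factor genes, chosen as a list after the values were seen, against 0.512 to 10.4 CPM in BDCP-FLY implants and 0.705 to 28.2 CPM in the other 4 BCP implants. Several results below are given also without implants 2 or 5.

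Levels of the targeted gene overlapped between the genotypes. Ddx3x, at chrX:13280970-13294052 on the plus strand, had a lowest level of 438, a median of 506 and a highest of 653 CPM in the BDCP-FLY implants. In BCP implants 1 to 5 it had 541, 472, 595, 512 and 345 CPM. BCP implant 5 was below the other 14 libraries, the groups overlapped, and the log2 fold change was −0.09 ± 0.14 (adjusted p = 0.61, edgeR quasi-likelihood test, Benjamini-Hochberg adjustment). In P30+ cerebella the groups did not overlap: Ddx3x had 187 to 260 CPM in BDCP-FLY P30+ cerebella and 329 to 403 CPM in BCP P30+ cerebella. Male tumours of the Shh model with the floxed allele had 77.1 to 149 CPM, against 560 to 774 CPM in Shh-model tumours without it. BDCP-FLY implants were above BDCP-FLY P30+ cerebella by 1.06 ± 0.14 on the log2 scale (adjusted p = 8.22e-07), but set against WT P30+ cerebella they differed by 0.14 (adjusted p = 0.357). BCP implants differed from theirs by 0.24 ± 0.14 (adjusted p = 0.146), and without BCP implant 5 by 0.35 (adjusted p = 0.0313). The difference between these changes was 0.82 ± 0.19 (adjusted p = 0.00223, interaction term), and 0.54 without BCP implants 2 and 5 (adjusted p = 0.0354). Counts per gene cannot show whether part of the gene was deleted, so the BDCP-FLY implants are named here by label and not as a measured loss of Ddx3x.

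The sex-linked genes Ddx3y and Xist varied between the genotypes and, for Xist, within them. Ddx3y, the Y-linked paralogue of Ddx3x, had 45.7, a median of 78.1 and up to 132 CPM in BDCP-FLY implants, and at most 0.503 CPM in BCP implants. Every BDCP-FLY implant was above every BCP implant. In BCP P30+ cerebella, Ddx3y had 78.6 to 96.3 CPM. Xist, the RNA that coats the inactive X chromosome of female cells, had 438 to 744 CPM in DMP022 implants, 305 CPM in the DMP015 implant and 78.8, 99.2 and 167 CPM in DMP017 implants. Among the BCP implants, 1 to 5, it had 1683, 1536, 1652, 1706 and 7.44 CPM. BDCP-FLY implants thus held both a Y-linked transcript and Xist, whereas the 4 BDCP-FLY P30+ cerebella had 1.80 to 3.57 CPM of Xist. BCP implant 5 was low in both Xist and Ddx3y. For Xist the genotype difference was −1.79 ± 0.73 (adjusted p = 0.0501), and without BCP implant 5 it was called (adjusted p = 0.00181). Fewer cells of a type and less RNA per cell cannot be told apart in these bulk libraries, here and below.

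**Figure D1:**
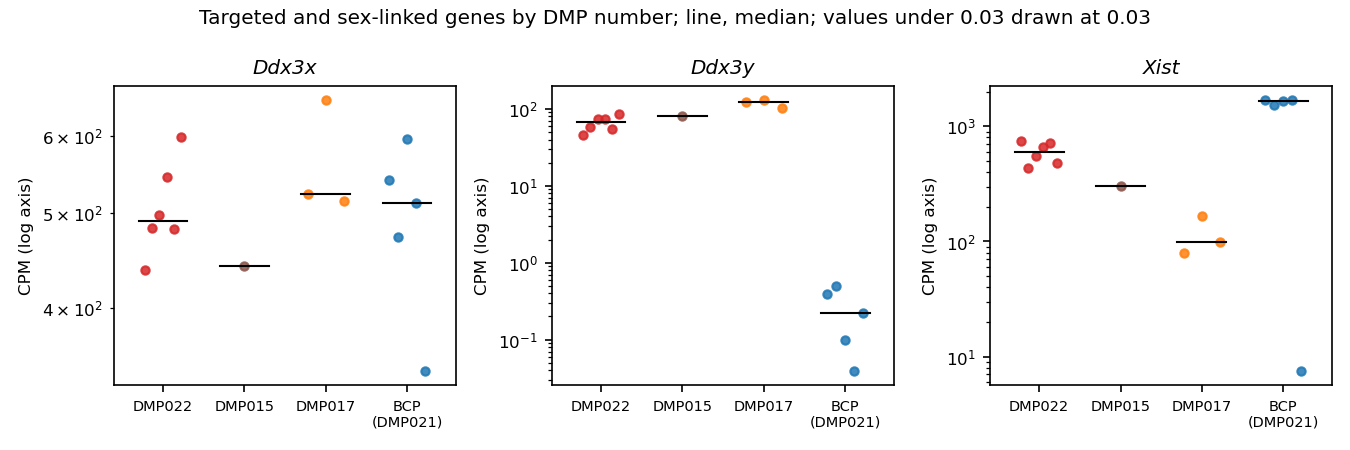
Level (CPM, log axis) of Ddx3x, Ddx3y and Xist in each implant, grouped by the DMP number of the title; each point is 1 library and the line is the group's median. Ddx3x lies between 345 and 653 CPM in all 15 libraries, while Ddx3y is at or under 0.503 CPM in every BCP implant and Xist is at 7.44 CPM in BCP implant 5.

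Between BDCP-FLY and BCP implants 10026 of 19471 genes were called, 51.5% of them, with 29.4% higher and 22% lower in BDCP-FLY implants. Counts of list members below are to be read against these shares, whose balance depended on the fit: 5178 genes were higher and 5490 lower with DESeq2, 4293 and 4831 with a minimum count of 50, and 6749 and 3460 with library totals only. When counts were summed by DMP number, which leaves 3 libraries against 1 and assumes that the lone BCP sum varies like the others, 178 genes were called, 28 higher and 150 lower, and 152 of these were among the 10026. With limma-voom and the DMP number as a correlated block 6058 genes were called. In that fit Notum, Lef1, Wnt16, Otx2, Phox2a, Ctnnb1, H2-D1, Mki67, Postn and Cdkn2a, described below, kept their direction and lost their call, with adjusted p between 0.06 (Otx2) and 0.444 (Cdkn2a).

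Ephb2, a receptor tyrosine kinase gene that guides axons and cell positions and that serves as an oncogene in a mouse model of ependymoma, was high in every BDCP-FLY implant. It had a lowest level of 7295, a median of 11124 and a highest of 19253 CPM in BDCP-FLY implants. BCP implants 1 to 5 had 10.9, 23.9, 18.6, 23.7 and 77.9 CPM. The lowest BDCP-FLY implant was far above the highest BCP implant, and the log2 fold change was 8.52 ± 0.60 (adjusted p = 2.52e-07). Within the BDCP-FLY implants the order followed the DMP numbers: 7295 to 11635 CPM in DMP022, 14902 CPM in DMP015 and 17636 to 19253 CPM in DMP017. P30+ cerebella held 40.9 to 134 CPM in BDCP-FLY and 47.6 to 67.4 CPM in BCP animals, and WT cerebella of embryonic stage E16.5 held 258 to 370 CPM. Shh-model tumours with and without the floxed Ddx3x allele stayed between 164 and 398 CPM. The implant-to-cerebellum change was 6.88 ± 0.62 for BDCP-FLY (adjusted p = 3.26e-09), and it differed from that of BCP by 7.96 ± 0.73 (adjusted p = 3.32e-07).

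Ephb2 lies at chr4:136647539-136835988 on the minus strand. Its neighbours did not share the size of its change. Among the 16 protein-coding genes tested within 500000 bases of it, log2 fold changes between BDCP-FLY and BCP implants ran from −0.97 to 2.64. The largest was that of E2f2, a cell cycle transcription factor gene. Kdm1a, a histone demethylase gene, had 0.47 and Luzp1 had −0.15. Other members of its family did not move as a block: of 22 genes of Eph receptors and ephrins, a list chosen after the values were seen, 4 were higher and 8 lower in BDCP-FLY implants, with a median log2 fold change of −0.70 (all genes −0.001).

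Wnt target genes were low in every BDCP-FLY implant and high in BCP implants 1 to 4. Their summed level over 16 genes was 237, a median of 262 and at most 284 CPM in BDCP-FLY implants. It was 9992, 10967, 15010, 8971 and 170 CPM in BCP implants 1 to 5. BCP implant 5 was below all BDCP-FLY implants, and the other 4 were above all of them. In P30+ cerebella the sum was 738 to 1986 CPM for BDCP-FLY and 308 to 1112 CPM for BCP, against 182 to 192 CPM in WT cerebella of P30+. BDCP-FLY implants were thus below BDCP-FLY cerebella and above WT cerebella of that age. Of 14 targets tested between the implants, 13 were lower in BDCP-FLY implants and none higher, with a median of −5.27, and without BCP implant 5 all 15 then tested were lower.

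Axin2, a scaffold of the beta-catenin destruction complex, had 13.5, a median of 16.2 and up to 22.5 CPM in BDCP-FLY implants, and 488, 534, 812, 502 and 19.0 CPM in BCP implants 1 to 5. Leaving out BCP implant 5 the groups did not overlap, and with it the log2 fold change was −4.95 ± 0.48 (adjusted p = 3.06e-06). Notum, a secreted enzyme that inactivates Wnt ligands, at chr11:120653788-120661175 on the minus strand, had 0.757 to 1.66 CPM in BDCP-FLY implants. In BCP implants 1 to 5 it had 384, 546, 683, 453 and 1.12 CPM (log2 fold change −8.62 ± 0.80, adjusted p = 1.93e-06). In BDCP-FLY P30+ cerebella Notum had 87.1 to 210 CPM, and it was lower in BDCP-FLY implants than in their cerebella, with a log2 fold change of −7.16 ± 0.68 (adjusted p = 7.71e-09). In BCP implants it was higher than in BCP P30+ cerebella, at 19.8 to 94.5 CPM, by 2.60 ± 0.72 (adjusted p = 0.00455). The difference between these changes was −9.76 ± 1.08 (adjusted p = 2.75e-06), and for Axin2 it was −5.53 ± 0.67 (adjusted p = 6.57e-06).

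The other targets followed the same samples. Wif1, a secreted Wnt inhibitor, had 0.110 to 9.94 CPM in BDCP-FLY implants, and 2830, 3215, 4320, 2507 and 4.45 CPM in BCP implants 1 to 5. Nkd1, a feedback inhibitor, changed by −8.05, Lef1, a DNA-binding partner of beta-catenin, by −2.90, and Tnfrsf19, a receptor gene, by −6.15. Tcf7, another partner of beta-catenin, was the tested target that was not called, with 50.7 to 114 CPM in BDCP-FLY implants and 4.86 to 259 CPM in BCP implants. Against the P30+ cerebella, 11 of 16 targets were lower and 1 higher in BDCP-FLY implants (all genes 69.4% called, 32.6% lower and 36.8% higher, of 20156 tested). In BCP implants 14 of 16 targets were higher and none lower (all genes 55.1% called, 32.6% higher and 22.5% lower). The change differed between the genotypes for 14 of 16 targets, all lower in BDCP-FLY (all genes 33.8% called, 13.9% lower and 19.9% higher).

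The ligands showed 1 exception to this direction. Of 18 Wnt ligand and R-spondin genes tested, 8 were lower in BDCP-FLY implants and 1, Wnt7b, was higher. Wnt7b, a ligand that acts on brain endothelium, had 70.8, a median of 103 and up to 166 CPM in BDCP-FLY implants, and 6.43, 4.65, 1.52, 3.78 and 8.07 CPM in BCP implants 1 to 5. All BDCP-FLY implants were above all BCP implants (log2 fold change 4.35 ± 0.35, adjusted p = 8.14e-07). Wnt16, a ligand of skeletal and other mesenchymal tissue, had 0.0366 to 1.80 CPM in BDCP-FLY implants, and 677, 742, 913, 643 and 0.710 CPM in BCP implants 1 to 5.

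The genes of the model alleles were read as well. Ctnnb1 had 524 to 660 CPM in BDCP-FLY implants, and 845, 1265, 1222, 787 and 495 CPM in BCP implants 1 to 5 (log2 fold change −0.79 ± 0.18, adjusted p = 0.00149). BCP implant 5 was below every BDCP-FLY implant and the other BCP implants were above every one. Pik3ca had 87.2 to 118 CPM in BDCP-FLY implants and 107 to 142 CPM in BCP implants (−0.49 ± 0.10, adjusted p = 0.00106). Gene counts do not show which allele was transcribed. Among 13 PI3K pathway genes 2 were higher (4 without BCP implant 5) and 6 lower, including Pik3r1, the regulatory subunit, at 22.3 to 116 CPM in BDCP-FLY implants and 250 to 709 CPM in BCP implants (−2.86 ± 0.39, adjusted p = 2.51e-05).

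**Figure D2:**
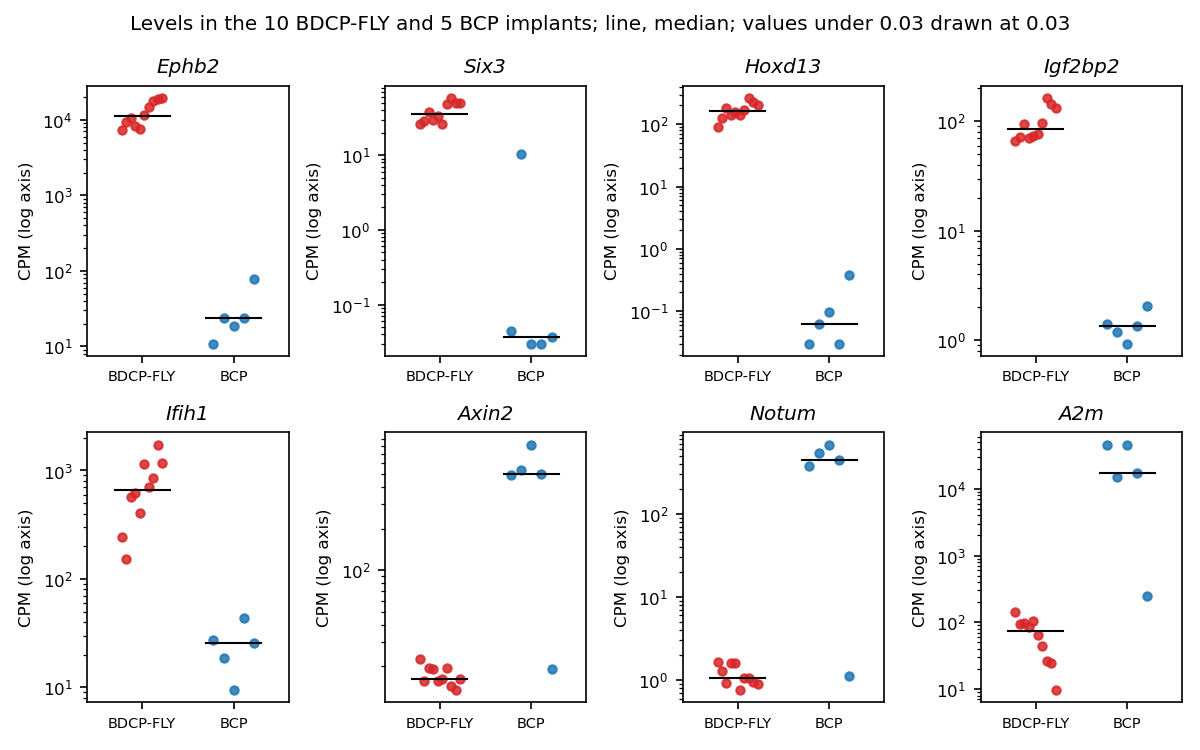
Level (CPM, log axis) of 8 genes in each of the 10 BDCP-FLY implants (left) and 5 BCP implants (right); points are libraries, lines are medians, and values under 0.03 CPM are drawn at 0.03. Ephb2, Six3, Hoxd13, Igf2bp2 and Ifih1 are higher in every BDCP-FLY implant, while Axin2 and Notum are high in 4 of 5 BCP implants.

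Six3 and the distal Hoxd genes were high in the same BDCP-FLY implants. Six3, a factor of forebrain and eye, had 25.8, a median of 35.6 and up to 57.8 CPM in BDCP-FLY implants. Among BCP implants it reached 10.4 CPM in implant 2, the library with pituitary transcripts, and was at or under 0.0441 CPM in the others. All BDCP-FLY implants were above all BCP implants for this gene.

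Hoxd13, a factor of the distal limb and the hindmost trunk, had 91.8, a median of 165 and up to 261 CPM in BDCP-FLY implants. In BCP implants it was at or under 0.374 CPM (log2 fold change 10.33 ± 0.64, adjusted p = 8.64e-08). Hoxd11, its neighbour in the cluster, had 23.3 to 52.6 CPM in BDCP-FLY implants and was at 0 in 4 of 5 BCP implants, with 0.0629 CPM in implant 2. Hoxd10 had 19.4 to 48.7 CPM in BDCP-FLY implants and at most 0.441 CPM in BCP implants. Neither P30+ cerebella (at most 0.211 CPM) nor WT cerebella of E16.5 (at most 0.290 CPM) held comparable Hoxd13. Of the 16 listed Hox genes tested, which exclude Hoxd11 and Hoxd13, 8 were higher in BDCP-FLY implants and none lower. Without BCP implant 2, 5 were higher, and without BCP implant 5, 6 were higher and 1 lower. The sum of the list was 94.3 to 212 CPM in BDCP-FLY implants and 4.655 to 127 CPM in BCP implants. In WT cerebella of E16.5 it was 76.2 to 657 CPM. Hoxb2, a hindbrain Hox gene, had 17.8 to 50.7 CPM in BDCP-FLY implants and 0.294 to 6.44 CPM in BCP implants (3.68 ± 0.56, adjusted p = 6.6e-05).

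Forebrain and midbrain factors as a list went both ways, with 4 of 10 higher and 5 lower, and their median sum was 179 CPM in BDCP-FLY implants and 467 CPM in BCP implants. Otx2, a factor of the forebrain, midbrain and choroid plexus, had 1.42, a median of 23.8 and up to 31.4 CPM in BDCP-FLY implants, and 278, 218, 362, 342 and 7.40 CPM in BCP implants 1 to 5 (−3.92 ± 0.74, adjusted p = 0.000445). BCP implants 1 to 4 were above all BDCP-FLY implants. Among neural stem cell genes, Sox1 had 41.1 to 90.2 CPM in BDCP-FLY implants and 0.784 to 5.09 CPM in BCP implants (4.16 ± 0.34, adjusted p = 9.52e-07). Nes, the intermediate filament of neural progenitors, had 209 to 361 CPM in BDCP-FLY implants and 67.3 to 114 CPM in BCP implants. These were the 2 called members of the 11 radial glia genes tested, whose median was 0.08. Fabp7, the gene whose promoter drives Blbp-Cre, had 8.50 to 50.5 CPM in BDCP-FLY implants and 5.60 to 59.2 CPM in BCP implants, with overlapping groups. Sox9, a factor of glia and cartilage, had 56.3 to 101 CPM in BDCP-FLY implants and 7.45 to 36.5 CPM in BCP implants (2.08 ± 0.30, adjusted p = 4.61e-05). Twist1, a mesenchymal factor, had 14.5 to 33.7 CPM in BDCP-FLY implants and 0.784 to 2.08 CPM in BCP implants. Of the 13 mesenchymal factors tested, 4 were higher and 7 lower in BDCP-FLY implants, with a median of −1.40. The sum of that list was 224 to 294.5 CPM in BDCP-FLY implants and 236 to 523 CPM in BCP implants.

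Genes of fetal growth control stood high in BDCP-FLY implants. In a list chosen after the values were seen, all 5 tested members were higher (Hmga1, Hmga2, Igf2bp2, Igf2bp3 and Lin28b) and their sum with 2 untested members was 333 to 655 CPM in BDCP-FLY implants, 8.77 to 50.8 CPM in BCP implants and 176 to 227 CPM in WT cerebella of E16.5. Igf2bp2, which binds and stabilises mRNAs, had 66.0, a median of 85.7 and up to 163 CPM in BDCP-FLY implants, and 1.41, 1.20, 0.931, 1.35 and 2.06 CPM in BCP implants 1 to 5 (5.99 ± 0.32, adjusted p = 1.62e-08). Hmga2, a chromatin protein gene of embryonic tissues, had 28.2 to 62.2 CPM in BDCP-FLY implants and 0.0629 to 1.76 CPM in BCP implants (5.88 ± 0.55, adjusted p = 1.97e-06). The groups did not overlap for either gene. The MYC family split: Myc was higher by 1.16 on the log2 scale (adjusted p = 0.000351), while Mycn had 0.315 to 2.09 CPM in BDCP-FLY implants and 24.6, 20.1, 39.4, 24.6 and 4.34 CPM in BCP implants 1 to 5 (−4.53 ± 0.45, adjusted p = 3.39e-06).

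Proliferation genes were higher in BDCP-FLY implants, in 14 of 14 cases, with a median of 1.92. Their sum was 1781, a median of 2651 and up to 3891 CPM in BDCP-FLY implants, and 842, 627, 1293, 668 and 198 CPM in BCP implants 1 to 5. The groups did not overlap, and P30+ cerebella were far lower, at 44.9 to 136 CPM for BDCP-FLY and 38.7 to 51.6 CPM for BCP. Top2a, the topoisomerase of dividing cells, had 395 to 875 CPM in BDCP-FLY implants and 194, 133, 271, 155 and 30.5 CPM in BCP implants 1 to 5 (1.81 ± 0.39, adjusted p = 0.00117). Mki67 was at 1.06 ± 0.40 (adjusted p = 0.0367) and lost its call when any 1 of 7 of the 15 libraries was left out, and was 0.63 without BCP implants 2 and 5 (adjusted p = 0.0953). Without those 2 implants 13 of 14 proliferation genes were higher. Cdkn2a, a tumour suppressor gene of cell cycle arrest, had 2.27 to 6.99 CPM in BDCP-FLY implants and 8.68, 6.85, 10.8, 16.8 and 1.20 CPM in BCP implants 1 to 5. It was chosen after its values were seen.

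Interferon response genes were higher in every BDCP-FLY implant than in any BCP implant as a sum. That sum was 2270, a median of 4509 and up to 8396 CPM in BDCP-FLY implants. In BCP implants 1 to 5 it was 604, 348, 249, 643 and 580 CPM, and P30+ cerebella of both genotypes held 44.5 to 222 CPM. All 14 genes were higher in BDCP-FLY implants than in BCP implants, with a median of 3.25. Both genotypes of implant were above their cerebella, with 14 of 14 genes higher for BDCP-FLY and 12 of 14 for BCP. The change differed between the genotypes for 13 of 14 genes, all higher in BDCP-FLY.

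Ifih1, which encodes the double-stranded RNA sensor MDA5, lies at chr2:62595798-62646255 on the minus strand. It had 154, a median of 656 and up to 1726 CPM in BDCP-FLY implants, and 27.3, 18.7, 9.41, 43.3 and 25.6 CPM in BCP implants 1 to 5 (4.79 ± 0.60, adjusted p = 1.56e-05). Every BDCP-FLY implant was above every BCP implant. Rsad2, the antiviral enzyme viperin, had 172 to 1311 CPM in BDCP-FLY implants and 2.60 to 25.8 CPM in BCP implants (5.50 ± 0.72, adjusted p = 1.95e-05). Isg15, a ubiquitin-like modifier, changed by 3.52 ± 0.42, Ifit1, which binds foreign RNA, by 3.66 ± 0.51 and Ddx58, which encodes the RNA sensor RIG-I, by 1.78 ± 0.28. The promoters of these 5 genes all held the interferon element described above.

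Antigen presentation split by class. The 6 class I genes tested, such as H2-K1 (1.21 ± 0.32, adjusted p = 0.0047) and H2-D1 (1.10 ± 0.34, adjusted p = 0.0141), were higher in BDCP-FLY implants. With DMP022 implants alone set against BCP, H2-K1 (adjusted p = 0.0823) and H2-D1 (adjusted p = 0.161) were no longer called, and without BCP implants 2 and 5 the change of H2-D1 was 1.71 (adjusted p = 0.00171). The 4 class II genes were lower, among them Cd74, the chaperone of class II molecules, at 40.4 to 169 CPM in BDCP-FLY implants and 232, 1025, 100, 399 and 762 CPM in BCP implants 1 to 5 (−2.55 ± 0.44, adjusted p = 0.000193). Without BCP implants 2 and 5 the change of Cd74 was −1.53 (adjusted p = 0.00691). Microglial genes moved with class II: 7 of 8 were lower and none higher, and their sum was 78.9 to 241 CPM in BDCP-FLY implants and 405 to 719 CPM in BCP implants. The macrophage list overlapped between groups, at 553 to 1457 CPM in BDCP-FLY implants and 445 to 3400 CPM in BCP implants, with 3 of 12 genes lower. What part these cell types had in the class II values was not tested.

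Immediate early genes, which cells switch on within minutes of a signal, were higher in 5 of 10 cases (8 without BCP implant 5) and lower in none. Egr1 had 331, a median of 557 and up to 985 CPM in BDCP-FLY implants, and 16.7, 34.6, 26.8, 17.9 and 159 CPM in BCP implants 1 to 5 (3.45 ± 0.56, adjusted p = 0.000111). Arc, an activity-regulated gene of neurons, had 264 to 1043 CPM in BDCP-FLY implants and 0.588 to 58.9 CPM in BCP implants (5.11 ± 0.88, adjusted p = 0.000187). The groups did not overlap for either gene. Fos, another member, had 15.04 to 35.8 CPM in BDCP-FLY implants and 7.64 to 94.9 CPM in BCP implants and was not called.

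**Figure D3:**
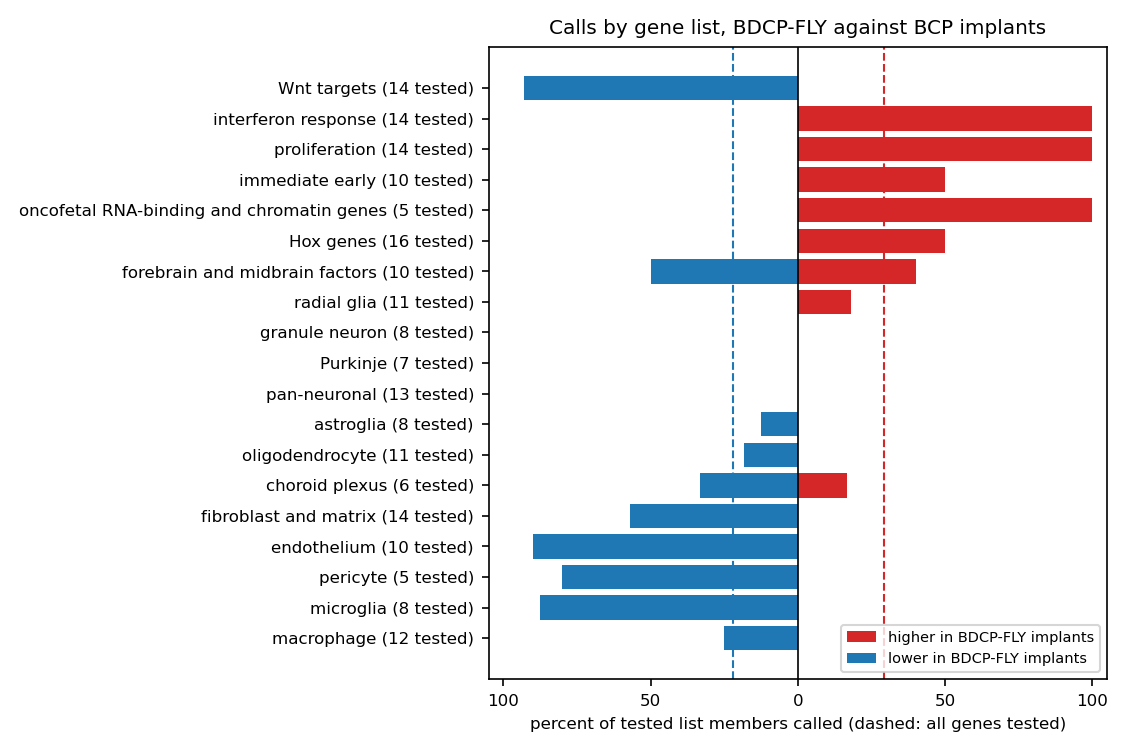
Percent of the tested members of 19 gene lists that were called higher (right, red) or lower (left, blue) in BDCP-FLY implants than in BCP implants; dashed lines mark the percent of all genes called, 29.4 higher and 22 lower. Interferon response and proliferation reach 14 of 14 higher, and Wnt targets 13 of 14 lower. The oncofetal list was chosen after the values were seen.

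A2m and, apart from it, genes of connective tissue were high in BCP implants 1 to 4 and low in BDCP-FLY implants. A2m, a secreted protease inhibitor, at chr6:121635376-121679227 on the plus strand, had 9.63, a median of 74.2 and up to 140 CPM in BDCP-FLY implants. In BCP implants 1 to 5 it had 45554, 14871, 44808, 16937 and 246 CPM (−8.66 ± 0.90, adjusted p = 4.29e-06). All BDCP-FLY implants were below all BCP implants. A2m was also higher in BCP implants than in BCP P30+ cerebella, by 7.67 ± 0.99 (adjusted p = 1.8e-06). Col12a1, a fibril-associated collagen, had 3.71 to 63.0 CPM in BDCP-FLY implants, and 4157, 1769, 4641, 2356 and 20.1 CPM in BCP implants 1 to 5. Dcn, a proteoglycan of the matrix, had 4.16 to 74.9 CPM in BDCP-FLY implants, and 2083, 1776, 2177, 3264 and 18.2 CPM in BCP implants 1 to 5.

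Of 14 fibroblast and matrix genes, 8 were lower in BDCP-FLY implants and none higher. Their sum was 362, a median of 899 and up to 2806 CPM in BDCP-FLY implants, and 6009, 5666, 7168, 11096 and 738 CPM in BCP implants 1 to 5. The highest BDCP-FLY value belonged to implant 9, the DMP015 library. Col1a1, the main fibrillar collagen, was not called (−2.10, adjusted p = 0.0563), but was without BDCP-FLY implant 9 (−3.23, adjusted p = 0.000991) and without BCP implant 5 (adjusted p = 0.0257). Pdgfra, a receptor of fibroblasts and oligodendrocyte precursors, had a log2 fold change of −3.67 (adjusted p = 6.18e-06), and Postn, a matrix protein, one of −6.36 (adjusted p = 4.96e-05). Endothelial genes were lower in 9 of 10 cases, with sums of 138 to 303 CPM in BDCP-FLY implants and 470 to 614 CPM in BCP implants, and pericyte genes in 4 of 5. A separate list of 6 brain endothelium genes had none called, with sums of 169.5 to 333 CPM in BDCP-FLY implants and 112 to 391 CPM in BCP implants. Without BCP implant 5, 2 of these 6 genes were higher in BDCP-FLY implants and none lower, while endothelial genes were still lower in 9 of 10 cases. Pecam1, an adhesion molecule of endothelium, changed by −1.26 and Tie1, an endothelial receptor, by −1.64.

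BCP implants 1 to 4 also shared factors of autonomic neurons and limb mesenchyme. Phox2a, a factor of autonomic and brainstem neurons, had at most 0.335 CPM in BDCP-FLY implants, and 89.0, 60.8, 174, 44.8 and 0.486 CPM in BCP implants 1 to 5. Ngfr, the low-affinity neurotrophin receptor, had 0.595 to 7.05 CPM in BDCP-FLY implants, and 789, 387, 833, 215 and 20.6 CPM in BCP implants 1 to 5 (−7.29 ± 0.80, adjusted p = 5.99e-06). Tbx4, a hindlimb factor, had 0.0385 to 0.340 CPM in BDCP-FLY implants, and 151, 93.1, 162, 83.5 and 0.112 CPM in BCP implants 1 to 5. In each case BCP implant 5 stood apart from the other 4.

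Levels of mature cerebellar genes followed the DMP numbers and, among BCP implants, were high in implant 5. Gabra6, a GABA receptor subunit of granule neurons, had 42.0 to 350 CPM in DMP022 implants, 0.680 CPM in the DMP015 implant and 0.731 to 1.64 CPM in DMP017 implants. In BCP implants 1 to 5 it had 0.485, 2.26, 7.55, 0.848 and 575 CPM. Between BDCP-FLY and BCP implants the log2 fold change was −0.13 ± 1.60 (adjusted p = 0.953), and without BCP implant 5 it was 5.14 (adjusted p = 0.0335). Between the genotypes the median log2 fold change was −0.19 over 8 granule neuron genes, 0.60 over 7 Purkinje genes and −0.41 over 13 pan-neuronal genes. Without BCP implant 5 the medians were 3.28 over the granule neuron genes, 5 of them called higher, and 0.27 over the pan-neuronal genes, and 2 of 7 Purkinje genes were called higher. Against their P30+ cerebella, BDCP-FLY implants were lower in 6 of 8 granule neuron genes and 6 of 7 Purkinje genes, and BCP implants in 2 of 8 and 6 of 7, or in 8 of 8 and 7 of 7 without implant 5. For Gabra6 the change in BCP implants was −2.54 (adjusted p = 0.19), and without implant 5 it was −7.96 (adjusted p = 0.000677).

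The 6 DMP022 and 3 DMP017 implants were compared directly. Of 20895 genes 46.8% were called, 25.0% higher and 21.8% lower in DMP022. All 8 granule neuron, 7 Purkinje, 13 pan-neuronal, 8 astroglia and 6 choroid plexus genes were higher in DMP022, and 7 of 11 oligodendrocyte genes. The granule neuron sum was 420 to 2659 CPM in DMP022 implants and 45.1 to 92.8 CPM in DMP017 implants, against 167 CPM in the DMP015 implant. Cbln3, a synaptic organiser of granule neurons, had 95.4 to 889 CPM in DMP022 implants and 2.19 to 3.95 CPM in DMP017 implants (7.27 ± 0.77, adjusted p = 0.000179). Ttr, the thyroid hormone carrier of choroid plexus, had 1217 to 3044 CPM in DMP022 implants and 47.0, 121 and 148 CPM in DMP017 implants (4.48 ± 0.45, adjusted p = 0.00015). Within each of these genes the sets did not overlap.

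Several genes high in all BDCP-FLY implants ran the other way. Proliferation genes were lower in DMP022 in 14 of 14 cases and interferon response genes in 7 of 14. Oncofetal genes, the list of fetal growth genes chosen after the values were seen, were lower in 5 of 5. None was higher in any of these lists. Ephb2 was lower in DMP022, with a log2 fold change of −1.0 ± 0.14 (adjusted p = 0.000547), as were Mki67 at −0.80 ± 0.09 (adjusted p = 0.000237), Six3 at −0.77 ± 0.11 (adjusted p = 0.000611) and Hoxd13 at −0.70 ± 0.16 (adjusted p = 0.00589). Ifih1 was not called (−1.22 ± 0.51, adjusted p = 0.0695). Xist was higher by 2.41 ± 0.28 (adjusted p = 0.000229), in the direction of the cerebellar genes. Ddx3x did not pass the test (−0.12 ± 0.12, adjusted p = 0.413). The cerebellar lists were thus high where these genes were lower, and their part in the lower values was not tested. Against BCP implants, Ephb2, Axin2, Notum and Ifih1 were called in the same direction with either DMP022 or DMP017 implants alone.

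**Figure D4:**
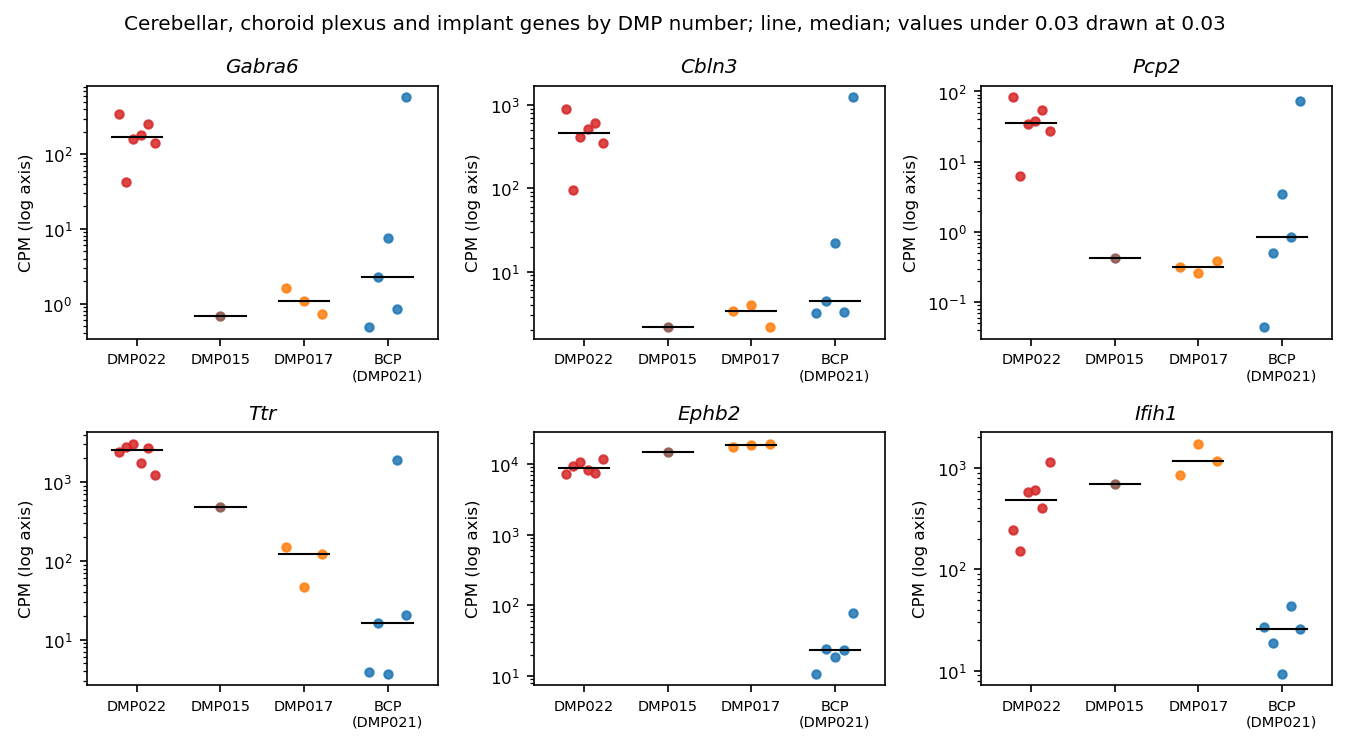
Level (CPM, log axis) of 4 cerebellar and choroid plexus genes (Gabra6, Cbln3, Pcp2 and Ttr) and 2 genes high in BDCP-FLY implants (Ephb2 and Ifih1), by DMP number; points are libraries and lines medians. Gabra6 is at 42.0 to 350 CPM in DMP022 implants and at 0.731 to 1.64 CPM in DMP017 implants, while Ephb2 is at or above 7295 CPM in both.

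BDCP-FLY implants 6 to 10 were set against implants 1 to 5, the 2 runs of title numbers. Of 18675 genes 0 were called by edgeR's quasi-likelihood test, 9 by DESeq2, and 215 had an unadjusted p under 0.05. Each run held DMP022 and DMP017 libraries, so the runs and the DMP numbers are not the same split.

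The implants were set against the means of 51 other groups of the series, all of them cerebella or Shh-model tumours. They differed in their closest group. With no other tissue among these groups, the ranking cannot show whether an implant resembles a tissue outside the cerebellum. By Spearman's rho over 16975 genes, given as a description, all 6 DMP022 implants were closest to BPtch cerebella of P30+ (0.862 to 0.905), and 3 of those 5 cerebella share a title number with a BPtch tumour library. For implant 5 the value was 0.862, against 0.861 for BPtchD-FLY tumours. The DMP015 implant was closest to BPtchD-FLY tumours (0.836), with BPtch tumours, which lack the floxed Ddx3x, at 0.832. The DMP017 implants were closest to BPtch or BPtchD-FLPlus tumours, at 0.783 to 0.800. BCP implants 1, 2 and 4 were closest to BCP cerebella of day 13 (0.840 to 0.857), implant 3 to BPtchD-FLY tumours (0.787) and implant 5 to BPtchD-FLFL cerebella of P30+ (0.936). For BCP implant 5, P30+ cerebella of BDCP-FLY (0.93), BCP (0.929) and WT (0.927) were nearly as close. By gene lists, BDCP-FLY implants 1 to 10 shared interferon, proliferation and distal Hoxd genes with a Wnt-target sum at or under 284 CPM, beside mature cerebellar transcripts whose amount varied with DMP number. BCP implants 1 to 4 shared Wnt-target and matrix genes, and implant 5 had the granule neuron genes of cerebellum (4001 CPM, against 3414 to 5133 CPM in BCP P30+ cerebella) with macrophage genes. The Wnt-target sum was above that of every BDCP-FLY and BCP P30+ cerebellum in 4 of the 15 implants, and the other 11 were at or under 284 CPM.

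**Figure D5:**
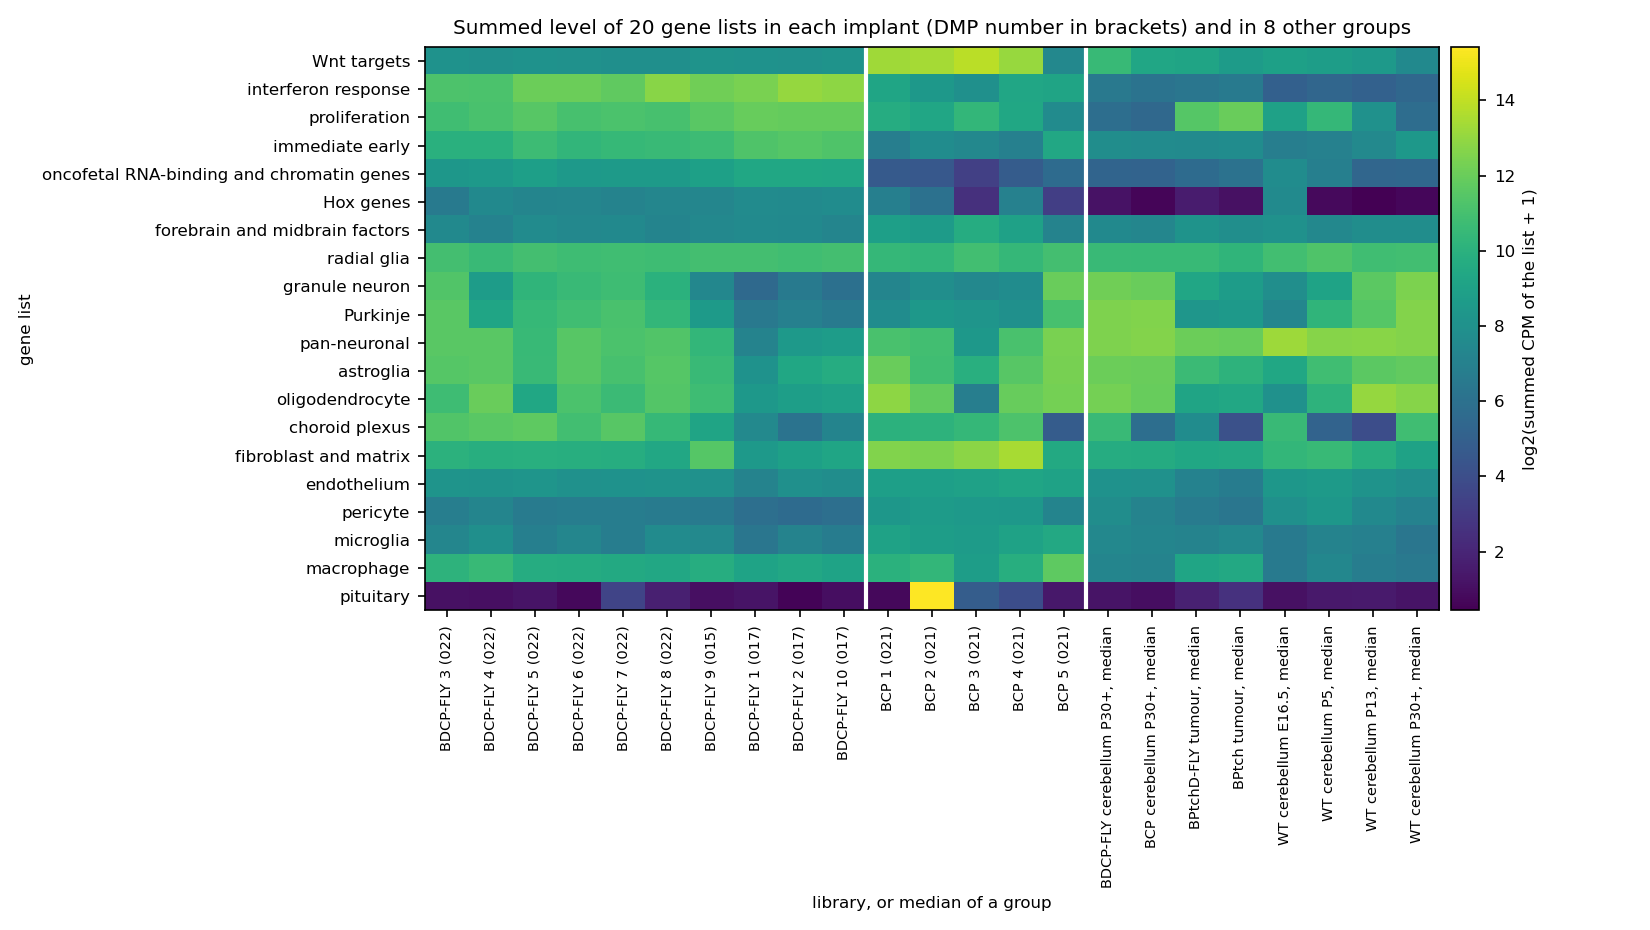
Summed level of 20 gene lists, as log2 of the summed CPM plus 1 (colour), in each BDCP-FLY implant, each BCP implant (white lines divide the sets) and as medians of 8 other groups; the DMP number stands in brackets. The Wnt target row is bright in BCP implants 1 to 4 alone, the interferon row is brightest in BDCP-FLY implants, and the pituitary row is bright in BCP implant 2. The oncofetal and pituitary lists were chosen after the values were seen.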

How the data were processed

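The deposited table holds whole-number read counts per gene for 32075 Ensembl genes, made by the authors with no normalization. The submitters' processing notes name HISAT2, featureCounts and the build GRCm38. Their versions and strand setting were not given in the sources used here, so overlapping antisense genes cannot be separated. Symbols matched 31711 gene IDs. RNA was extracted with Trizol and a Qiagen kit, per the labels' protocols.

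Groups came from the labels, with a DMP22 title read as DMP022 and a label P10 read as implant 10. Members and lists were chosen with earlier results of these data known. Genes named are those of the model, the 12 largest rises and falls per comparison, up to 6 members of each list by p, and genes said to be chosen later. Not every gene so named is reported here.

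Counts were fitted with edgeR 4.0.16 in R 4.3.3 (TMM, filterByExpr at a minimum count of 10 and total of 15, quasi-likelihood F-test, two-sided, Benjamini-Hochberg over all genes tested). The implant-to-cerebellum comparisons shared a fit of 24 libraries, the implants and P30+ cerebella of both genotypes. The difference of implant-to-cerebellum changes was an interaction in that fit. The fit of DMP022 against DMP017 also held the DMP015 library as a group of its own. The other main fits held only the libraries compared. Each standard error is the absolute log2 fold change divided by the root of its F statistic. The scripts were tested on simulated data. Alternatives used DESeq2 1.42.0, limma 3.58.1, other filters and scalings, DMP numbers and single libraries left out. No pair of implants of a group agreed within sampling noise.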

Additional observations from a re-analysis of the deposited data

Results flagged for a closer look

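Within a group of implants, a library was singled out where its gap to the nearest other was large for the range of the group (Dixon's test at 95%). Chance would single out a library in about 1 in 20 such tests if CPM values were normally distributed, which was not tested. The test was repeated for each gene and list, so the values below are given without weight on any single one.

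BCP implant 5 was the highest of the 5 BCP implants for Ephb2 (77.9 CPM), Egr1 (159 CPM), Arc (58.9 CPM) and Gabra6 (575 CPM), and for the summed levels of granule progenitor genes (1433 CPM), granule neuron genes (4001 CPM), Purkinje genes (2101 CPM) and immediate early genes (679.5 CPM). It was the lowest for Xist (7.44 CPM), mesenchymal factors (236 CPM) and pericyte genes (143 CPM). BCP implant 2 was the highest for Prl, the prolactin gene (24441 CPM), Six3 (10.4 CPM), the pituitary list (43822 CPM), blood genes (366 CPM) and liver genes (21.5 CPM). BCP implant 3 was the highest for melanocyte genes (36.1 CPM) and the lowest for inflammasome genes (40.2 CPM), and BCP implant 4 was the highest for Postn (2705 CPM).

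Among BDCP-FLY implants, implant 9, the only DMP015 library, was the highest for Col12a1 (63.0 CPM), Col1a1 (713 CPM), fibroblast and matrix genes (2806 CPM) and skeletal muscle genes (26.5 CPM). Implant 3 was the highest for meningeal fibroblast genes (836 CPM), implant 8 for adipocyte genes (79.8 CPM) and implant 7 for the pituitary list (10.4 CPM). Implant 1 was the lowest for endothelial genes (138 CPM).

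The change from P30+ cerebella to implants differed between BDCP-FLY and BCP for 6805 of 20156 genes by the interaction test in edgeR. It did so for Ddx3x (0.82 on the log2 scale, BDCP-FLY minus BCP), Axin2 (−5.53), Notum (−9.76), Ephb2 (7.96) and Ifih1 (4.91).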

How the results depend on the processing

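Genotype and DMP number cannot be separated in these implants, and the count of called genes between genotypes depended on how libraries of 1 DMP number were treated. It was 10026 with libraries as replicates, 10134 with limma-voom and no block (added after seeing the data), 6058 with limma-voom and the DMP number as a correlated block (correlation 0.298), and 178 with counts summed per DMP number, a fit with 3 libraries against 1. Between the genotypes, the deviations of same-numbered implants from their group's mean correlated at −0.14, 0.07, −0.40, 0.28 and 0.15. Differently numbered pairs were not set beside them, so these values cannot settle whether replicate numbers pair the implants. With a replicate block over implants numbered 1 to 5, 5042 genes were called, against 7367 in the same libraries with no replicate block. Between implants and cerebella the block gave 9843 genes for BDCP-FLY, 8819 for BCP and 5571 for the difference between them. Leaving out single libraries gave 9053 to 10755 genes between the genotypes, 13304 to 14100 for BDCP-FLY implants against cerebella, 9659 to 12269 for BCP, 5908 to 7376 for the difference, 7296 to 10282 between DMP022 and DMP017, and 0 for implants 6 to 10 against 1 to 5, where DESeq2 called 9. The median of all genes between the genotypes was −0.001 with TMM, −0.11 with DESeq2 size factors and 0.13 with library totals only. 2 uncalled values changed sign. Ddx3x ran from −0.200 (without BCP implant 5) to 0.044 (without BCP implant 3) with single libraries left out, and was 0.077 with DMP017 alone, 0.038 with counts summed per DMP number and 0.062 with library totals. Gabra6 between genotypes ran from −0.52 to 5.14 with single libraries left out, and was 1.79 with the replicate block, 0.45 with DMP022 alone, 0.018 without DMP015, 0.26 with limma-voom and the DMP block, 1.49 with limma-voom and no block, and 5.01 without BCP implants 2 and 5. With counts summed per DMP number, 9 Wnt targets, 2 Hox genes and 1 fibroblast gene kept a call, and 0 interferon, proliferation and microglia genes did. The cause of these differences was not tested, nor was the part that the smaller number of libraries had in them.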
